A study of Gossypium hirsutum with 120 samples.

Results

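Bracteal and foliar nectaries of Gossypium hirsutum TM-1 (upland cotton) were compared at the post-secretory stage, after nectar flow had ended. The samples were chosen by their labels alone, as the 3 RNA samples of post-secretory bracteal nectary and the 3 of post-secretory foliar nectary, 6 of the 51 RNA samples in the table. The study dissected floral, bracteal, circumbracteal and foliar nectaries, with tissue next to each, at stages defined by nectar flow, and sequenced their RNA on an Illumina HiSeq instrument. The deposited table gives a signal for each predicted cotton protein. Here the entries of a gene were summed and scaled to a common upper quartile (normalized values). The values carry a gene-length scale and are not read counts, so levels were compared between samples of a gene and not between genes.

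All samples came from TM-1 plants, a single accession that served as the study's only genotype, grown in chambers without a treatment and collected after flowering had begun. Bracteal nectaries lie at the base of the bracts that enclose the flower and boll, and the post-secretory ones were taken 19 to 24 days after anthesis. Foliar nectaries lie on the lower face of the leaf midrib, and the post-secretory ones came from fully mature leaves without visible nectar. A replicate was a pool of several nectaries. The study calls these pools biological replicates. The records and the methods give different pool sizes and do not say whether each pool came from separate plants. The p-values therefore measure a spread between pools and not between plants. That spread was estimated over all 51 RNA samples of the fit and not from the compared pools alone. The organ, its age and the time since secretion differed between the groups together and cannot be told apart. The non-nectary tissue next to the same nectaries (3 adjacent bract and 3 adjacent leaf samples) and the pre-secretory bracteal and foliar nectaries (2 samples each) served as reference.

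Extrafloral nectaries of cotton are patches of multicellular papillae supplied by phloem beneath them, and their nectar attracts ants and other predators of herbivores. In the current picture of nectar secretion, sugar from phloem and stored starch leaves the secretory cells through SWEET carriers, cell wall invertase splits the exported sucrose, and plasma membrane proton pumps energize transport. A bract belongs to the reproductive shoot and a leaf to the vegetative shoot, and MADS-box, KNOX and YABBY factors are the classical regulators of that identity and of the flat shape of lateral organs.

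The summed signal per sample was 10073415 to 11208477 in bracteal nectaries and 7633887 to 8683892 in foliar nectaries. Replicates correlated across genes on the log2 scale at 0.890 to 0.924 (Pearson) in bracteal and 0.924 to 0.943 in foliar nectaries. The median standard deviation of a gene was 0.521 in bracteal and 0.371 in foliar nectaries, beside 0.865 pooled over all groups of the fit. Bracteal replicate 1 stood apart from the others on the leading principal component of the 12 post-secretory samples (a score of -223.86, against -124.67 and -107.59), and it had 41072 entries above 0 where the others had 44535 and 44932. Counts of genes are therefore also given without it.

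The labelled tissues were examined with marker genes. Over 17 nectary genes, found by their match to CRABS CLAW, SWEET9, CWINV4, BLADE-ON-PETIOLE2 and STYLISH1 of Arabidopsis, the summed normalized value was 1770.3 to 2880.2 in bracteal nectaries and 761.3 to 905.5 in the adjacent bract. In foliar nectaries it was 552.7 to 795.5, and in the adjacent leaf 96.4 to 126.9. The sum was thus higher in each nectary than in the tissue beside it in all samples. The 4 matches of BLADE-ON-PETIOLE2 did not follow it, with 40.5, 67.7 and 68.4 in bracteal nectaries, 143.2, 246.4 and 238.9 in the bract, 36.4, 48.3 and 67.0 in foliar nectaries and 35.3, 67.0 and 81.7 in the leaf. The 2 genes matched to SWEET9, the sucrose exporter of nectaries in other species, were listed at 0 in all 12 post-secretory samples. They were also at 0 in the pre-secretory bracteal and foliar nectaries. The study, in contrast, followed SWEET9 by RT-qPCR in floral and bracteal nectaries. It also reports SWEET9 above CWINV4 in the extrafloral nectaries at the secretory stage. The reason for the 0 values was not tested, and they are not read here as absence of SWEET9. Markers of other cell types also differed between the nectaries. The 27 phloem genes summed to 1071.4 to 1805.9 in bracteal and 2082.9 to 3902.0 in foliar nectaries, with 1 higher, 2 lower and a median log2 difference of 0.00. Most of that sum came from the 5 matches of the sucrose loader SUC2 (752.4 to 1431.2 against 1986.5 to 3691.4), whereas the 4 matches of APL, which specifies phloem, had 115.6, 303.0 and 327.5 in bracteal and 50.7, 74.9 and 142.8 in foliar nectaries and included the higher gene. The 33 xylem genes summed to 393.9 to 774.4 against 136.5 to 334.1 (2 higher, 0 lower). The 12 guard cell lineage genes summed to 5.8 to 14.1 against 70.7 to 150.7 (0 higher, 3 lower), and 8 of the 12 were listed at 0 in every bracteal sample, among them both matches of FAMA, which drives guard cell formation. The 18 epidermis and trichome genes summed to 397.6 to 650.4 against 677.4 to 785.6. Without bracteal replicate 1, no gene of the phloem, xylem, guard cell and epidermis lists was called by limma in either direction. The part of these cell types in the results was not tested, and in bulk samples fewer cells of a type and less RNA per cell cannot be told apart.

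Of 45337 genes tested, 3898 (8.6%) differed between the post-secretory bracteal and foliar nectary (limma, a 1.5-fold change or more at a Benjamini-Hochberg adjusted p below 0.05). In bracteal nectaries 1918 genes (4.23%) were higher and 1980 (4.37%) lower, a balance that quantile scaling turned to 3045 higher and 2530 lower. The 3 bracteal samples lay apart from the 3 foliar samples in 1898 of the higher and 1942 of the lower genes. A call favours such genes, and the share that lay apart over all genes tested was not counted. The median change was 5.56-fold for the higher and 8.48-fold for the lower genes, on the scale of the normalized value plus 1 that all fold changes and log2 differences below share. Of the lower genes, 536 were listed at 0 in every bracteal sample, and of the higher genes, 136 were listed at 0 in every foliar sample. Detection differed in the same direction, with 41072 to 44932 entries above 0 in bracteal and 46382 to 46930 in foliar samples. The share of genes at 0 over all genes tested was not counted, and the part of detection in these numbers was not tested. Without bracteal replicate 1, 2029 genes passed, 954 higher and 1075 lower, and without foliar replicate 1 or 2 there were 2395 and 2532. With the compared conditions fitted alone, 4323 genes passed, and 2701 of them were among the 3898. All differences below are bracteal minus foliar, ± SE, and each adjusted p is from limma with Benjamini-Hochberg adjustment over all genes tested.

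The calls fell unevenly over gene groups. The groups in which bracteal nectaries had more higher than lower calls included MADS-box factors (23 and 11 of 102 tested), KNOX and BELL homeobox factors (13 and 8 of 69), SHI RELATED SEQUENCE factors (5 and 0 of 18), lipid transfer proteins (17 and 2 of 59), expansins (12 and 6 of 61) and aquaporins (10 and 5 of 65). The groups with more lower calls included YABBY factors (3 and 11 of 23), NAC factors (3 and 18 of 144), WRKY factors (6 and 30 of 176), HD-ZIP factors (5 and 14 of 127), ethylene genes (16 and 38 of 296), abscisic acid and drying genes (7 and 23 of 100), cuticle and wax genes (6 and 20 of 106), Calvin cycle genes (0 and 14 of 45) and senescence genes (0 and 7 of 29). Among 492 cytosolic ribosomal protein genes, 2 were higher and 2 lower. No enrichment was tested for any of these groups.

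**Figure D1:**
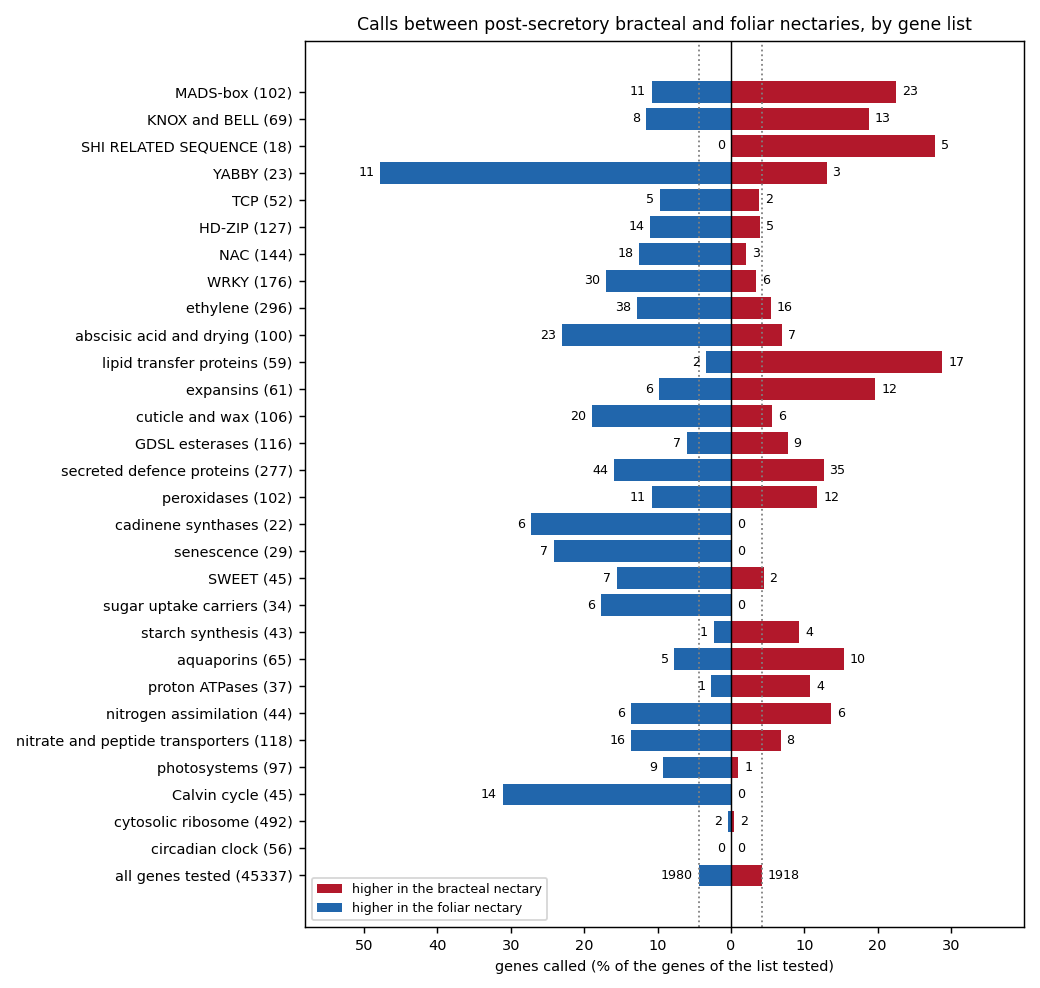
Share of the tested genes of each list that were higher in bracteal (red, right) or foliar (blue, left) post-secretory nectaries, in percent of the list, with the number of genes at each bar and the number tested in parentheses. The dotted lines mark all genes tested, 4.23% higher and 4.37% lower, and the YABBY, cadinene synthase and Calvin cycle bars reach far to the foliar side while the lipid transfer protein bar reaches to the bracteal side.

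Of the 23 higher MADS-box genes, 5 are given here. The CAULIFLOWER A-like gene XP_016674382.1, whose Arabidopsis match APETALA1 specifies floral meristems, had normalized values of 2221, 2419 and 1774 in bracteal and 0, 27.5 and 2.64 in foliar nectaries (replicates 1 to 3). The lowest bracteal sample was thus far above the highest foliar sample, and the log2 difference was 8.82 ± 0.72 (adjusted p = 3.58e-11). A second gene of this kind, CAULIFLOWER D-like LOC107934869, had values of 1964, 1183 and 1339 against 6.77, 20.8 and 0.88 (7.74 ± 0.57, adjusted p = 2.88e-12). Reads of such near-identical copies may have been divided between them in the table.

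Among them were genes matched to the carpel identity factors SHATTERPROOF1 and SHATTERPROOF2 of Arabidopsis. AGL1 LOC107959674 stood at 243, 105 and 121 in bracteal nectaries and was listed at 0 in every foliar sample (adjusted p = 3.38e-11). MADS-box transcription factor 23-like LOC107923320 had 772, 283 and 361 against 1.69, 5.83 and 9.7 (6.21 ± 0.66, adjusted p = 1.93e-08). The SEPALLATA-type gene CMB1-like XP_016718840.1, of a class that acts with other floral organ factors, had 217, 160 and 185 against 1.69, 0 and 3.53 (6.34 ± 0.83, adjusted p = 1.1e-06). Bracteal and foliar samples did not overlap in any of the 3 genes.

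Of the 11 lower MADS-box genes, 3 are given here. The SVP-like gene XP_016734301.1, named after a repressor of flowering, had 37, 52.5 and 30.8 in bracteal and 1648, 949 and 867 in foliar nectaries, a log2 difference of -4.79 ± 0.79 (adjusted p = 5.23e-05). AGL24-like LOC107920922 had 1.16, 1.01 and 5.78 against 189, 182 and 153 (-5.83 ± 0.90, adjusted p = 2e-05). AGL19 LOC107929211 was listed at 0 in every bracteal sample and at 108, 89 and 59.1 in foliar nectaries (adjusted p = 1.02e-12). Of the 102 MADS-box genes, 20 were higher and 10 lower without bracteal replicate 1, and their median log2 difference was -0.07 beside -0.11 over all genes tested.

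Among the largest rises were 3 genes of the florigen family, whose FLOWERING LOCUS T members move from leaf to shoot tip to induce flowering. HEADING DATE 3A LOC107909115, an FT match, had 846, 1205 and 1373 in bracteal and 3.38, 1.66 and 1.76 in foliar nectaries (8.46 ± 0.78, adjusted p = 6.14e-10). Its relative LOC107928282 had 580, 667 and 921 against 0, 4.99 and 1.76 (8.12 ± 0.77, adjusted p = 1.35e-09). CEN-like protein 2 XP_016747720.1, from the branch of this family that opposes flowering, had 201, 257 and 627 and was listed at 0 in every foliar sample (adjusted p = 3.58e-08). These 3 genes were chosen among those whose samples of the 2 nectaries did not overlap, and the rest of the family was not counted.

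Of the 69 KNOX and BELL genes, 13 were higher, 8 lower and 48 not called, with a median of -0.10 (0.05 under quantile scaling). The higher ones included 4 genes of the type that keeps meristem cells undifferentiated (class I KNOX), named here for the size of their differences. Knotted-1-like 2 LOC107938311 had 401, 439 and 377 in bracteal nectaries and was listed at 0 in all foliar samples (adjusted p = 4.78e-12). Its copy LOC107930537 had 353, 331 and 282 against 0.85, 0.83 and 0 (7.74 ± 0.67, adjusted p = 1.35e-10). SBH1-like LOC107962021, matched to SHOOT MERISTEMLESS, had 630, 292 and 543 against 0.85, 0.83 and 0 (8.28 ± 0.97, adjusted p = 1.42e-07). These 3 genes were thus near or at 0 in foliar nectaries, and a second SBH1-like gene, LOC107910050, had 203, 133 and 110 and was listed at 0 in every foliar sample (adjusted p = 1.01e-06). The homeobox protein BEL1 homolog XP_016739215.1, of the class that partners KNOX proteins, was lower in bracteal nectaries, with 18.5, 28.3 and 38.5 against 456, 362 and 510 (-3.96 ± 0.85, adjusted p = 0.00165). The class II gene knotted-1-like 3 LOC107893457 had 42.8, 65.6 and 86.7 against 206, 196 and 315 (-1.88 ± 0.55, adjusted p = 0.0253), a call lost without bracteal replicate 1 or 2 or foliar replicate 1 or 3 (adjusted p of 0.0575 to 0.156). The KNOX and BELL list had 11 higher and 5 lower calls without bracteal replicate 1.

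Another gene of this expression pattern was the response regulator ARR22-like LOC107942544, of the two-component family of cytokinin signalling, with 870, 600 and 972 in bracteal nectaries and 0 in every foliar sample (adjusted p = 8.84e-07). TCP15-like LOC107920386, from a family that controls cell division in leaf blades, was lower, with 38.1, 11.1 and 10.6 against 616, 297 and 335 (-4.49 ± 0.75, adjusted p = 6.82e-05). Of 52 TCP genes, 2 were higher and 5 lower.

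YABBY genes, which promote blade growth and the abaxial side of lateral organs, divided into members of either nectary. The YABBY 5-like gene LOC107943058 was listed at 0 in every bracteal sample and at 1044, 906 and 1165 in foliar nectaries (adjusted p = 3.24e-11). LOC107897255, XP_016701973.1 and LOC107917100, also YABBY 5-like, were listed at 0 in all bracteal samples too, beside 591, 312 and 351, then 367, 434 and 540, and then 197, 255 and 366 in foliar nectaries. In contrast, the YABBY 5-like gene LOC107907328 had 1405, 936 and 1225 in bracteal and 16.1, 9.99 and 5.29 in foliar nectaries (6.79 ± 1.13, adjusted p = 6.41e-05). LOC107944698 was higher as well, at 451, 245 and 379 against 54.1, 12.5 and 29.1 (3.63 ± 0.75, adjusted p = 0.00116). The third higher gene of the list was CRABS CLAW-like LOC107939930, whose Arabidopsis match is required for nectary formation, with 40.5, 12.1 and 41.4 against 0, 1.66 and 6.17 (3.41 ± 0.79, adjusted p = 0.00342). That call was lost without foliar replicate 1 (adjusted p = 0.055). The median over the 23 YABBY genes was -0.88 on the log2 scale, 3 higher and 11 lower calls were also counted without bracteal replicate 1 and under quantile scaling, and near-identical members may share reads.

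**Figure D2:**
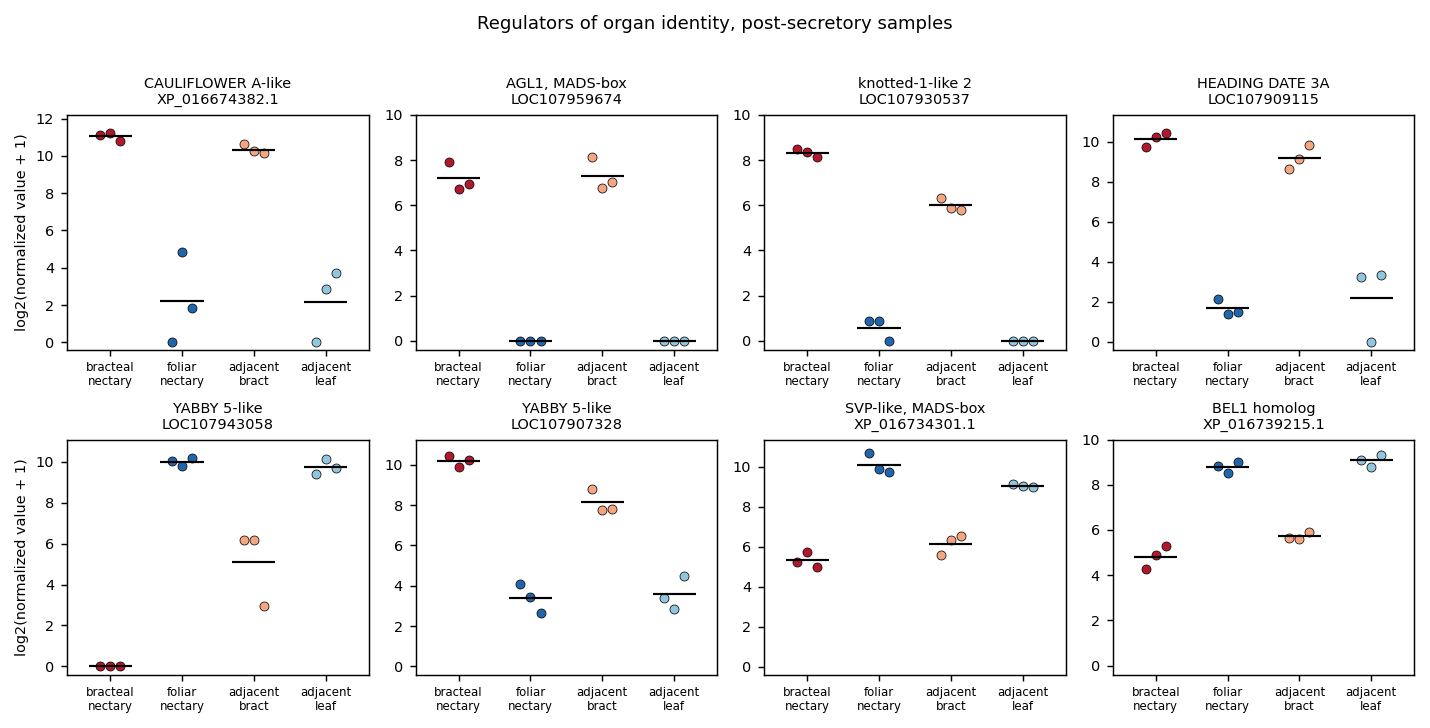
Normalized values of 8 regulators of organ identity and flowering on the scale of log2(normalized value + 1) in the 3 samples of each post-secretory tissue (points), with the mean as a bar. The CAULIFLOWER A-like, AGL1, knotted-1-like 2 and HEADING DATE 3A genes are higher in the bracteal nectary and adjacent bract. In the foliar nectary and leaf they reach at most 27.5 (normalized, CAULIFLOWER A-like in a foliar nectary). The YABBY 5-like gene LOC107943058 is at 0 in the 3 bracteal nectaries.

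SHI RELATED SEQUENCE factors activate auxin synthesis genes and shape the style and the nectary in other species. Of 18 genes tested, 5 were higher in bracteal nectaries and 0 lower, with a median of 0.96 beside -0.11 over all genes. SHI RELATED SEQUENCE 5-like LOC107910209 had 677, 358 and 405 in bracteal and 76.1, 114 and 59.9 in foliar nectaries (2.5 ± 0.57, adjusted p = 0.0031). Its copy LOC107887298 had 423, 213 and 335 against 41.4, 54.9 and 26.4 (2.96 ± 0.65, adjusted p = 0.00207). SHI RELATED SEQUENCE 6-like LOC107896388 had 94.8, 92.9 and 74.2 against 15.2, 14.2 and 17.6 (2.40 ± 0.49, adjusted p = 0.000957). The foliar nectary thus held a lower level of these genes and not a level of 0.

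Among the genes of sugar release, 2 cell wall invertases were higher in bracteal nectaries. Invertase LOC107948309, matched to CWINV4, which splits sucrose at the wall and is needed for nectar in Arabidopsis, had 1605, 1176 and 706 in bracteal and 102, 177 and 53.8 in foliar nectaries. Its samples did not overlap, and its difference of 3.46 ± 1.13 was close to the threshold (adjusted p = 0.0489). That call was lost without any of the 6 nectary samples (adjusted p of 0.062 to 0.188). A second insoluble invertase, LOC107899251, had 347, 328 and 104 against 3.38, 7.49 and 4.41 (5.29 ± 1.43, adjusted p = 0.014), which was lost without bracteal replicate 1 or 2 or foliar replicate 1 (adjusted p = 0.0719, 0.0556 and 0.0586). Of 21 invertase genes, 2 were higher and 2 lower.

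Of 45 SWEET genes, which code for sugar uniporters, 2 were higher and 7 lower in bracteal nectaries. SWEET7-like LOC107911375 had 111, 100 and 102 in bracteal nectaries against 0.85, 0.83 and 3.53 (5.41 ± 1.16, adjusted p = 0.00156). SWEET3-like XP_016745909.1 had 549, 295 and 595 against 16.1, 43.3 and 189 (3.13 ± 0.95, adjusted p = 0.0296). The latter was lost without bracteal replicate 1 or 3, or foliar replicate 1 or 2 (adjusted p of 0.0854 to 0.21). SWEET15 LOC107898995, of the clade of sucrose exporters and in Arabidopsis a senescence-associated gene, was listed at 0 in every bracteal sample and had 22, 45.8 and 117 in foliar nectaries (adjusted p = 0.000416). SWEET16-like LOC107887323, from the clade of vacuolar carriers, had 10.4, 13.1 and 0.96 against 73.6, 55.8 and 51.1 (-3.15 ± 0.94, adjusted p = 0.0281). SWEET1-like LOC107910421 had 3.47, 29.3 and 21.2 against 163, 201 and 107 (-3.41 ± 1.06, adjusted p = 0.037). Leaving out single samples ended both calls, with bracteal replicate 3 or any foliar sample for SWEET16-like and bracteal replicate 1 or any foliar sample for SWEET1-like (adjusted p of 0.0621 to 0.278).

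Of 34 carriers that load or take up sugar, 0 were higher and 6 lower in bracteal nectaries, with a median of -0.98 beside -0.11 over all genes. The SUC2-like gene LOC107951579, of the sucrose loader of the phloem, had 666, 630 and 1190 in bracteal and 1527, 2810 and 2359 in foliar nectaries (-1.45 ± 0.36, adjusted p = 0.00806). The SUC2-like gene LOC107910491 had 78.6, 125 and 237 against 418, 871 and 639 (-2.20 ± 0.52, adjusted p = 0.00399). Sugar carrier protein C-like LOC107900618, a hexose importer, had 0, 12.1 and 13.5 against 73.6, 185 and 153 (-4.49 ± 0.66, adjusted p = 9.2e-06). Both SUC2-like genes are also members of the phloem marker list given above, where they carry the 2 lower calls. Without bracteal replicate 1 the SUC2-like genes no longer passed (adjusted p = 0.0574 and 0.0561), the former also not without bracteal replicate 2 or foliar replicate 2 (adjusted p = 0.0536 and 0.0626), and 3 genes of the list were called lower.

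Enzymes of sucrose and starch synthesis were higher for a few members. Sucrose synthase XP_016750206.1, which splits sucrose for use in sink tissue, had 1115, 1074 and 801 in bracteal and 177, 226 and 220 in foliar nectaries (2.25 ± 0.44, adjusted p = 0.000589). Granule-bound starch synthase 1 XP_016695260.1, which makes amylose, had 5004, 2635 and 2522 against 824, 676 and 890 (2.02 ± 0.39, adjusted p = 0.000458). Of 43 starch synthesis genes, 4 were higher and 1 lower, and of 55 starch breakdown genes 2 and 2. The plasma membrane ATPase 4-like gene LOC107888377, a proton pump, had 981, 1056 and 1137 against 65.1, 117 and 260 (3.06 ± 0.40, adjusted p = 8.84e-07). It was 1 of 4 higher genes among 37 proton ATPases, with 1 lower.

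Calls among genes of photosynthesis were nearly all lower in the bracteal nectary. All 14 Calvin cycle calls of 45 genes were lower, the median was -1.83 beside -0.11 over all genes, and the summed normalized value was 2840.9 to 4249.4 in bracteal and 10248.8 to 14006.4 in foliar nectaries. Rubisco activase LOC107930076, which keeps the carbon-fixing enzyme active, had 0, 15.2 and 20.2 against 414, 283 and 369 (-5.65 ± 1.16, adjusted p = 0.00098). The Rubisco small chain LOC107916703 had 0, 14.1 and 15.4 against 251, 399 and 395 (-5.76 ± 1.03, adjusted p = 0.000178). Light-harvesting and photosystem genes followed with 1 higher and 9 lower of 97 and a median of -0.75, and 24 were lower under quantile scaling. The chlorophyll a-b binding protein 8 gene LOC107923442 had 77.4, 74.7 and 263 against 742, 496 and 947 (-2.60 ± 0.83, adjusted p = 0.0417), and the photosystem II W gene LOC107926795, the only higher one, had 1570, 521 and 590 against 241, 236 and 171 (1.87 ± 0.61, adjusted p = 0.0477). Both photosystem calls were lost without bracteal replicate 1 (adjusted p = 0.189 and 0.335) and without most other single samples. Without that replicate, 8 Calvin cycle and 3 photosystem genes were lower and 0 higher.

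Nitrogen genes went both ways, with 6 higher and 6 lower of 44. Cytosolic glutamine synthetase LOC107954816, which fixes ammonium, had 4771, 3597 and 4405 in bracteal and 164, 516 and 301 in foliar nectaries (3.84 ± 0.43, adjusted p = 5.06e-08). Asparagine synthetase LOC107937167, which makes the amide used in nitrogen transport, had 7298, 4071 and 2949 against 314, 229 and 228 (4.12 ± 0.56, adjusted p = 2.35e-06). Glutamate dehydrogenase 2-like LOC107933490, which releases ammonium from glutamate, had 250, 231 and 253 against 22.8, 26.6 and 53.8 (2.89 ± 0.35, adjusted p = 2.5e-07). These 3 enzymes of ammonium and amide metabolism were thus higher in every bracteal sample. Genes described as transporters had the opposite direction for the members named here. The high-affinity nitrate transporter 3.2-like gene LOC107953370 had 11.6, 0 and 15.4 against 480, 437 and 223 (-5.93 ± 0.99, adjusted p = 6.41e-05), and lysine histidine transporter 1-like LOC107888705, an amino acid importer, had 5.78, 9.09 and 3.85 against 199, 250 and 104 (-4.65 ± 0.65, adjusted p = 3.97e-06). Of 118 nitrate and peptide transporters 8 were higher and 16 lower, and of 98 amino acid transporters 7 and 10. Without bracteal replicate 1 the nitrate and peptide transporters had 6 higher and 10 lower calls. The amino acid transporters then had 7 higher and 4 lower, so their balance turned, and under quantile scaling they had 10 and 11.

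The surface and the cell wall differed in several groups. Lipid transfer proteins, which carry lipids to the cuticle, were higher in 17 and lower in 2 of 59 genes, and in 9 and 1 without bracteal replicate 1. The lipid transfer protein 2-like gene LOC107891986 had 990, 832 and 125 in bracteal and 11.8, 20 and 10.6 in foliar nectaries (5.01 ± 1.07, adjusted p = 0.00155). Wax and cutin genes had more lower than higher calls (6 higher and 20 lower of 106), yet the ECERIFERUM 1-like gene LOC107962106, of the enzyme that makes wax alkanes, had 4568, 6366 and 3197 against 319, 459 and 408 (3.53 ± 0.74, adjusted p = 0.00129). Among the lower ones, 3-ketoacyl-CoA synthase 10-like XP_016673850.1, of an enzyme family that elongates fatty acids for cuticle lipids, had 24.3, 50.5 and 62.6 against 1258, 599 and 701 (-4.21 ± 0.59, adjusted p = 3.63e-06). 3-Ketoacyl-CoA synthase 6-like XP_016711621.1 had 0, 3.03 and 3.85 against 138, 36.6 and 50.2 (-4.58 ± 0.59, adjusted p = 7.06e-07).

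The GDSL esterase LOC107961078, from a family that includes cutin-forming enzymes, had 4058, 4148 and 1630 in bracteal nectaries against 35.5, 27.5 and 114 (5.94 ± 1.09, adjusted p = 0.000251). Among expansins, which loosen cell walls, expansin-A6-like LOC107898833 had 483, 319 and 138 against 3.38, 9.99 and 11.5 (5.04 ± 0.80, adjusted p = 3.29e-05). Expansin-like B1 LOC107918654 was lower, with 0, 0 and 4.82 against 513, 2293 and 1159 (-9.27 ± 1.91, adjusted p = 0.00107). The aquaporin TIP1-1 gene XP_016680708.1, of a water channel of the vacuole membrane, had 11184, 7090 and 8432 against 848, 1397 and 1090 (3.00 ± 0.39, adjusted p = 1.09e-06). All 4 of these genes had samples that did not overlap, which for expansin-like B1 was a condition of its choice among the largest falls.

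**Figure D3:**
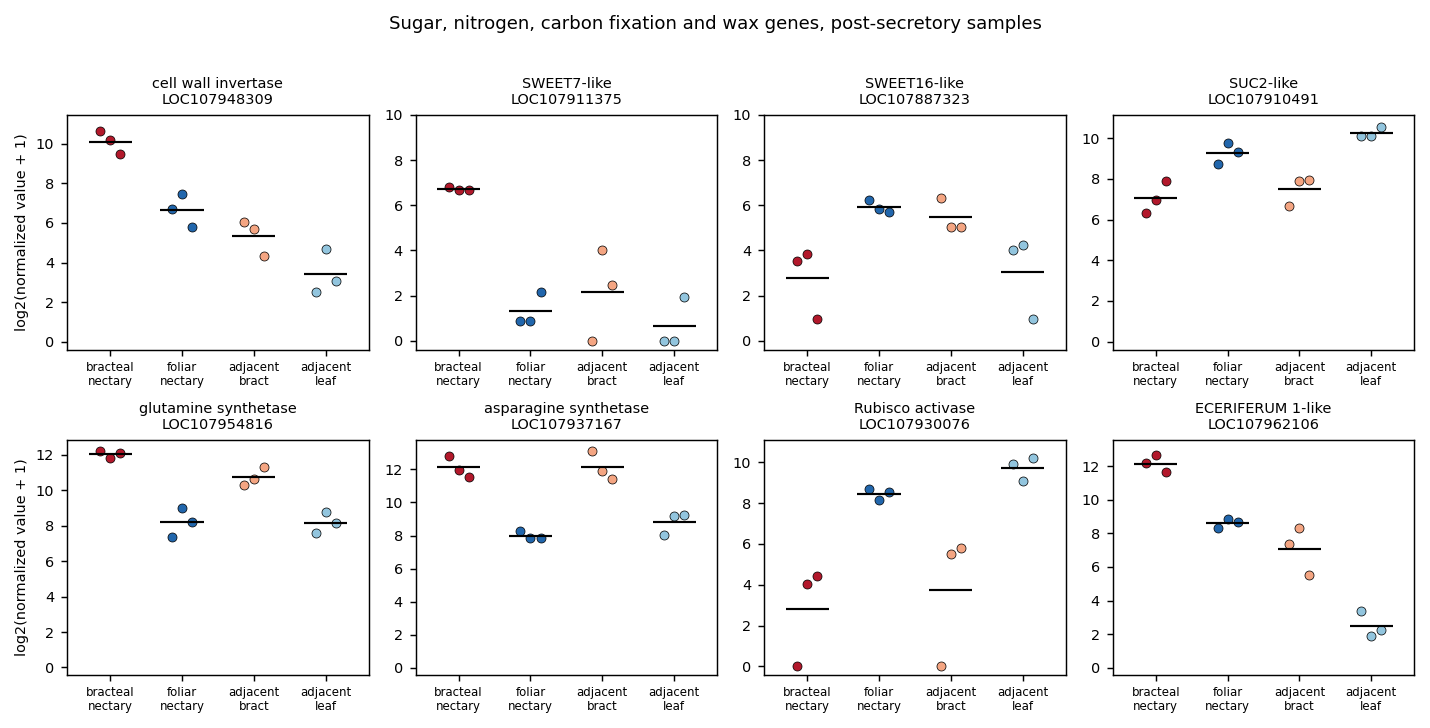
Normalized values of 8 genes of sugar, nitrogen, carbon fixation and wax metabolism on the scale of log2(normalized value + 1) in the 3 samples of each post-secretory tissue (points), with the mean as a bar. The cell wall invertase and ECERIFERUM 1-like genes are highest in the bracteal nectary, SWEET7-like stands at 100 to 111 (normalized) there and at most 15.3 elsewhere, and Rubisco activase and SUC2-like are higher in foliar nectary and leaf.

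All calls among senescence genes were lower in bracteal nectaries, with 0 higher and 7 lower of 29 and a median of -1.06 (5 lower without bracteal replicate 1). The summed normalized value of the list nevertheless overlapped, at 13642.7, 8147.8 and 36189.0 in bracteal and 64692.3, 30282.9 and 24703.7 in foliar nectaries. Beside them it was 23996.6, 77644.3 and 91751.8 in the bract and 53130.9, 30036.0 and 41651.3 in the leaf. The genes named next therefore do not stand for the whole list. The zingipain-2-like protease LOC107900651, matched to SAG12, the classical marker of leaf senescence, had 2.31, 1.01 and 0 in bracteal and 166, 142 and 83.7 in foliar nectaries (-6.07 ± 0.95, adjusted p = 2.53e-05). SENESCENCE-ASSOCIATED GENE 21-like LOC107919079 had 12.7, 0 and 10.6 against 1250, 448 and 390 (-6.80 ± 1.34, adjusted p = 0.000633). NAC transcription factor 29-like LOC107946409, whose Arabidopsis match NAP promotes leaf senescence, had 0, 15.2 and 36.6 against 787, 693 and 496 (-6.26 ± 1.13, adjusted p = 0.000197). Its copy LOC107910104 had 5.78, 4.04 and 75.1 against 1230, 679 and 191 (-5.31 ± 1.69, adjusted p = 0.041). The samples of neither copy overlapped between the nectaries, but the latter call was lost without bracteal replicate 1 or 2 or foliar replicate 1 or 2 (adjusted p of 0.117 to 0.178). The age of the 2 organs was not matched, as stated above.

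Genes of abscisic acid and ethylene and WRKY factors had more lower than higher calls, as counted above. The abscisic acid receptor PYL4-like LOC107937038 was listed at 0 in every bracteal sample and at 96.4, 71.6 and 83.7 in foliar nectaries (adjusted p = 0.000113). In contrast, NCED3-like LOC107912930, of the limiting step of abscisic acid synthesis, had 40.5, 70.7 and 162 against 4.23, 7.49 and 5.29 (3.59 ± 0.73, adjusted p = 0.000964). The 2 named genes of ethylene synthesis also parted, both coding for the oxidase of the last step. The gene XP_016753770.1 had 2543, 1595 and 3428 against 254, 314 and 465 (2.85 ± 0.53, adjusted p = 0.000301), whereas LOC107950208 had 125, 221 and 183 against 2288, 1543 and 1774 (-3.42 ± 0.51, adjusted p = 1.04e-05). WRKY75 LOC107937099, of a family of stress regulators, had 0, 2.02 and 27.9 against 173, 318 and 61.7 (-5.09 ± 0.98, adjusted p = 0.000445). WRKY70 XP_016754009.1, a factor of salicylic acid defence, was higher, at 217, 463 and 47.2 against 15.2, 20.8 and 0.88 (4.28 ± 0.99, adjusted p = 0.00366), and was lost without foliar replicate 3 (adjusted p = 0.0642). The HD-ZIP factor ATHB-52-like LOC107939183 had 0, 0 and 1.93 against 1612, 405 and 468 (-8.88 ± 1.09, adjusted p = 3.2e-07).

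Secreted defence proteins were split, with 35 higher and 44 lower of 277 and a median of 0.00, and quantile scaling turned the balance to 47 higher and 44 lower. The basic vacuolar glucanase LOC107892119, which attacks fungal walls, was listed at 0 in every bracteal sample and at 394, 1302 and 762 in foliar nectaries (adjusted p = 1.52e-10). The basic endochitinase LOC107901348 had 0, 3.03 and 0 against 565, 781 and 59.9 (-7.56 ± 1.56, adjusted p = 0.00105). The Bet v 1-A-like gene LOC107896610, of the pathogenesis-related PR-10 family, had 0, 10.1 and 0 against 1227, 571 and 283 (-8.03 ± 0.69, adjusted p = 1.35e-10). In the other direction, the STH-2-like gene LOC107915337 of the same family had 6861, 2779 and 7334 against 697, 946 and 332 (3.10 ± 0.53, adjusted p = 0.000104). Aminotransferase ALD1-like LOC107899574, whose Arabidopsis match makes a precursor of the signal for systemic acquired resistance, had 239, 177 and 219 against 0, 8.32 and 0.88 (6.34 ± 0.94, adjusted p = 1.08e-05). Bracteal and foliar nectaries thus each held defence genes that the other had at a low level.

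Cotton glands store sesquiterpenes made from cadinene. Of 22 cadinene synthase genes, 0 were higher and 6 lower (3 under quantile scaling), and the list summed to 2.9 to 13.9 in bracteal and 80.2 to 287.9 in foliar nectaries, with 17 of the 22 listed at 0 in every bracteal sample. HMG-CoA reductase LOC107939227, of the pathway that supplies sesquiterpenes, had 142, 171 and 206 against 1959, 735 and 1155 (-2.79 ± 0.46, adjusted p = 5.83e-05). Of 64 isoprenoid precursor genes, 1 was higher and 4 lower.

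The metallothionein-like type 2 gene LOC107898831, of a small metal-binding protein, had normalized values of 223752, 109693 and 103899 in bracteal nectaries and 194, 273 and 1975 in foliar nectaries (8.18 ± 0.93, adjusted p = 7.59e-08). A fixed set of 5 entries, those with the largest sums over all RNA samples, was also followed in every sample. This set took 17.5 to 26.8% of the signal in bracteal and 0.733 to 13.2% in foliar nectaries. The share of each sample's own most abundant entries was not counted.

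The comparison of the tissue next to the nectaries shows how much of these differences the bract and the leaf shared. Between adjacent bract and leaf, 6732 genes (14.8%) passed, 3175 higher (7%) and 3557 lower (7.85%) in the bract. Quantile scaling moved the median of all genes in this comparison from -0.14 to 0.02. Of the 3898 nectary calls, 2265 also passed between bract and leaf, 2251 in the same direction (1120 higher, 1131 lower) and 14 in the opposite. The 2251 were 57.7% of the nectary calls and 33.4% of the adjacent-tissue calls. The 2 comparisons share no sample, although nectary and adjacent samples of the same number deviated together. CAULIFLOWER A-like XP_016674382.1 had a log2 difference of 8.16 between bract and leaf beside 8.82 between the nectaries, HEADING DATE 3A LOC107909115 had 7.0 beside 8.46, and the metallothionein LOC107898831 had 7.66 beside 8.18. SVP-like XP_016734301.1 had -2.90 beside -4.79, and zingipain-2-like LOC107900651 had -8.40 beside -6.07. Calls in both tissues with the same direction numbered 16 among KNOX and BELL genes, 26 among MADS-box genes and 7 among YABBY genes.

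**Figure D4:**
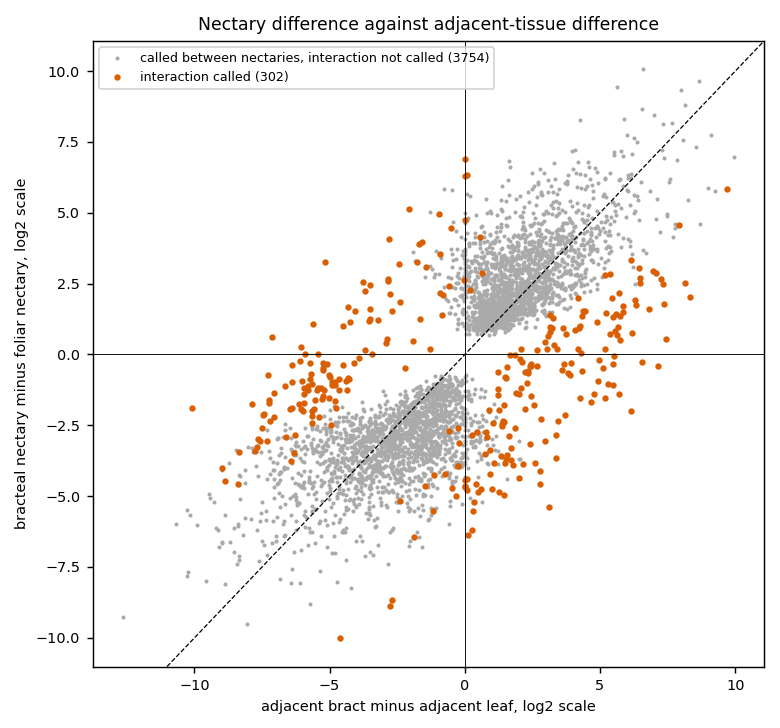
Each point is a gene, with the log2 difference of adjacent bract minus adjacent leaf on the horizontal axis and of bracteal minus foliar nectary on the vertical axis, post-secretory. Gray points are genes called between the nectaries, orange points the 302 genes whose differences themselves differed, and the dashed line marks equal differences, near which most gray points gather.

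Whether the nectaries differed by another amount than the tissue around them was tested as the difference of the 2 differences in the same fit. It passed for 302 genes (0.666%), 130 with a more positive (0.287%) and 172 with a more negative (0.379%) difference between the nectaries. The balance of signs was not stable: it turned to 431 and 204 with a pseudocount of 10, to 157 and 137 without foliar nectary replicate 2, and to 159 and 155 with run 1 alone. Of the 302, 144 were also called between the nectaries and 158 were called between bract and leaf but not between the nectaries. The 144 comprised 74 with no call in the adjacent tissue, 56 called in both in the same direction and 14 in opposite directions. Of the 1633 nectary calls with no call between bract and leaf, these 74 thus passed the test, and for the rest no departure from the adjacent tissue was shown. The count was 117 without bracteal nectary and bract replicate 1 together, an alternative chosen after the data had been seen. It was 185 without foliar nectary replicate 1 and also without leaf replicate 2, and 187 without foliar nectary replicate 3.

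Members of the YABBY family were among these genes. YABBY 5-like LOC107933134 had 75.1, 11.1 and 52 in bracteal and 1418, 1406 and 1777 in foliar nectaries, but 3827, 1311 and 2586 in the bract and 361, 267 and 211 in the leaf. Its difference was thus negative between the nectaries (-5.38 ± 1.01) and positive between bract and leaf (3.10), and the 2 differed by -8.48 ± 1.43 (adjusted p = 0.000741). YABBY 5-like LOC107953694 had 9.25, 0 and 1.93 against 222, 240 and 211 in the nectaries and overlapping values of 66.8 to 112 in the bract and 50.1 to 96.1 in the leaf (-6.43 ± 1.06, adjusted p = 0.000654). Of 23 YABBY genes, 9 had a more negative difference between the nectaries and 0 a more positive one, with a median of -3.06 beside 0.02 over all genes.

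Of the 4 YABBY 5-like genes listed at 0 in every bracteal nectary, 2 passed this test, and both had a signal in the bract. LOC107943058 had 71, 72.3 and 6.86 in the bract beside 672, 1124 and 837 in the leaf (-5.38 ± 1.14, adjusted p = 0.011), and the call was lost without bract replicate 1 (adjusted p = 0.0521). LOC107897255 had 39.2, 70.1 and 43.4 beside 415, 356 and 228 (-5.96 ± 1.18, adjusted p = 0.00564).

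A second set of genes was present in foliar nectary, bracteal nectary and bract and nearly missing from the leaf beside the foliar nectary. NAC domain-containing protein 45-like LOC107923746 had 288, 232 and 230 in bracteal nectaries and 387, 746 and 480 in foliar nectaries. It had 264, 124 and 152 in the bract and 5.73, 5.29 and 0.93 in the leaf (-6.36 ± 0.87, adjusted p = 4.93e-05). The ESR2-like ethylene response factor LOC107928676, of a type linked to shoot initiation, had 82.1, 108 and 148, then 200, 428 and 497, then 75.9, 77.7 and 29.7, and in the leaf 0, 10.6 and 0 (-6.32 ± 1.14, adjusted p = 0.0018). The ubiquitin ligase RHA1B-like gene LOC107892475 had 834, 413 and 629, then 115, 166 and 165, then 1120, 572 and 864, and in the leaf 0, 0 and 15.8 (-6.30 ± 1.07, adjusted p = 0.000828). None of these 3 genes was called between the nectaries themselves (adjusted p = 0.335, 0.223 and 0.0906).

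SHI RELATED SEQUENCE genes belonged to the same set. LOC107910209, given above for the nectaries, had 1161, 351 and 524 in the bract and 1.91, 1.76 and 5.57 in the leaf (-4.81 ± 0.81, adjusted p = 0.000741). LOC107887298 had 787, 204 and 410 against 8.59, 0.88 and 0.93 (-4.00 ± 0.92, adjusted p = 0.0221). SHI RELATED SEQUENCE 1-like LOC107909432, matched to STYLISH1, had 436, 460 and 353 in bracteal and 249, 215 and 163 in foliar nectaries, and 346, 302 and 288 in the bract against 33.4, 7.05 and 14.9 in the leaf (-3.25 ± 0.73, adjusted p = 0.0179). The foliar nectary was thus above the leaf in all 3 genes, while bracteal nectary and bract overlapped for the former pair. SHI RELATED SEQUENCE 6-like LOC107896388 had the opposite sign, with 11, 3.28 and 27.4 in the bract and 13.4, 15.9 and 18.6 in the leaf (2.97 ± 0.69, adjusted p = 0.0265). In this list, 1 gene was more positive and 5 more negative. The calls of LOC107887298, LOC107909432 and LOC107896388 were lost without bract replicate 1 (adjusted p = 0.0958, 0.0513 and 0.0521) and without several other single samples (adjusted p up to 0.131).

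LOC107914615, of a family that limits shoot meristem size in Arabidopsis, was nearly restricted to the foliar nectary among these tissues, with 315, 1182 and 725 there, 23.1, 28.3 and 11.6 in the bracteal nectary, 11, 8.76 and 1.14 in the bract and 0.95, 5.29 and 0 in the leaf. The differences departed by -6.42 ± 1.38 (adjusted p = 0.0121), which was lost without bract replicate 1 or leaf replicate 3 (adjusted p = 0.0507 and 0.0544). The WAT1-related gene LOC107921359, of a family of vacuolar and plasma membrane transporters, was the counterpart in the bracteal nectary, at 114, 73.7 and 193 there and at 0 in all 9 samples of the other 3 tissues (6.89 ± 1.21, adjusted p = 0.00126). It was not restricted in this way before secretion, with 21.4 and 42 in bracteal and 38.7 and 13.2 in foliar nectaries.

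Defence and metabolic genes were also among the 302. ALD1-like LOC107899574, high in bracteal and near 0 in foliar nectaries, had 47.7, 23 and 64 in the bract and 29.6, 39.7 and 52 in the leaf (6.27 ± 1.33, adjusted p = 0.011), and was lost without foliar nectary replicate 1 (adjusted p = 0.0579). STH-2-like LOC107915337 had 1285, 531 and 3395 in the bract against 4003, 5221 and 2167 in the leaf, with the means in the opposite order to the nectaries (4.53 ± 0.76, adjusted p = 0.000718). Glutamate dehydrogenase LOC107933490 had 56.3, 104 and 76.6 against 37.2, 39.7 and 77.1 (2.25 ± 0.50, adjusted p = 0.0164). In these 3 genes the bract and leaf samples overlapped, while those of the nectaries did not. For the ALD1-like and STH-2-like genes, nectary samples without overlap were a condition of their choice. The glutamate dehydrogenase call was lost without bract replicate 1, leaf replicate 3 or foliar nectary replicate 1 (adjusted p = 0.0669, 0.0871 and 0.0767).

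Other genes differed less between the nectaries than between bract and leaf. ACC oxidase 3-like LOC107950208 had 13.5, 38.3 and 27.4 in the bract against 5941, 4439 and 6081 in the leaf (4.33 ± 0.72, adjusted p = 0.000708). Peroxidase 4-like LOC107927161, of a family that acts in the cell wall, had 52, 98 and 106 in bracteal and 699, 593 and 766 in foliar nectaries, and 0, 24.1 and 10.3 against 1062, 844 and 1313 in bract and leaf (4.28 ± 0.92, adjusted p = 0.012). Momilactone A synthase-like LOC107928231, a dehydrogenase, had 8.09, 19.2 and 5.78 against 94.7, 224 and 31.7 in the nectaries and 8.57, 10.9 and 9.14 against 1729, 2562 and 1748 beside them (4.51 ± 1.1, adjusted p = 0.0372). The HD-ZIP factor HAT22-like LOC107935244 had 95.9, 47.5 and 30.8 against 162, 151 and 165 in the nectaries and 0, 5.47 and 0 against 185, 339 and 360 beside them (5.66 ± 1.37, adjusted p = 0.0331). For all 4 genes every leaf sample stood above the foliar nectary samples, and every bract sample below the bracteal nectary samples except for momilactone A synthase-like, where these overlapped. The momilactone A synthase-like and HAT22-like calls were lost without most single samples (adjusted p of 0.0583 to 0.178). Peroxidase 4-like was lost without bract replicate 1 (adjusted p = 0.0513).

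Of the cuticle and wax list, 2 of 106 genes had a more positive and 4 a more negative difference between the nectaries than between bract and leaf, and 2 of the latter are elongases. 3-Ketoacyl-CoA synthase 10-like XP_016673850.1 had 214, 530 and 372 in the bract and 1179, 385 and 426 in the leaf (-3.48 ± 0.83, adjusted p = 0.0299). The 6-like member XP_016711621.1 had 155, 162 and 111 in the bract and 229, 67.9 and 74.3 in the leaf (-5.00 ± 0.83, adjusted p = 0.000718). Every bracteal nectary sample was thus below those of the other 3 tissues in both genes. ATHB-52-like LOC107939183 had 104, 139 and 155 in the bract and 1192, 792 and 786 in the leaf (-6.10 ± 1.54, adjusted p = 0.0496), just inside the threshold, and the call was lost with the replicate block (adjusted p = 0.0591) and with the pairing of nectary and adjacent samples within each organ (adjusted p = 0.0653). SWEET16-like LOC107887323 had 79.5, 31.8 and 32 in the bract and 15.3, 17.6 and 0.93 in the leaf (-5.55 ± 1.33, adjusted p = 0.0315). The 10-like synthase, ATHB-52-like and SWEET16-like calls were each lost without several single samples (adjusted p of 0.0526 to 0.172).

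**Figure D5:**
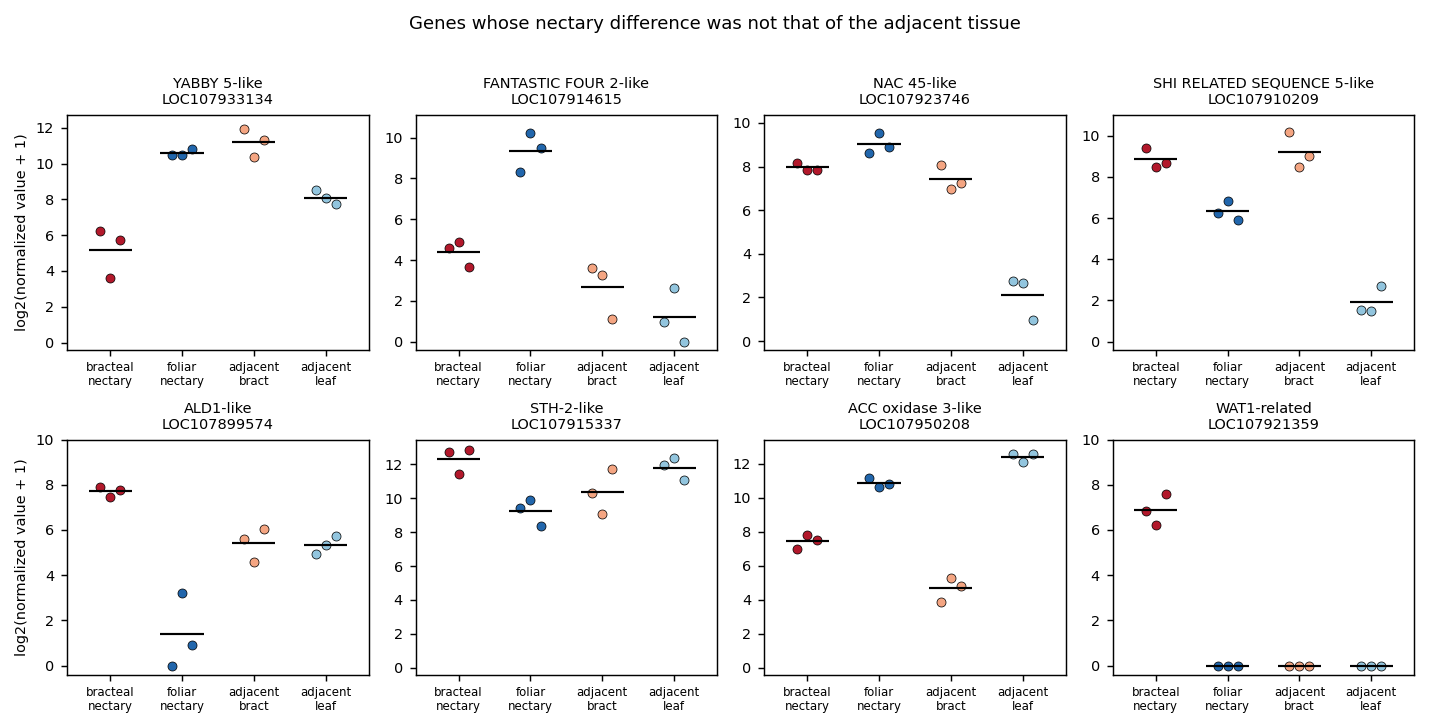
Normalized values of 8 genes whose nectary difference departed from that of the adjacent tissue, on the scale of log2(normalized value + 1), in the 3 samples of each post-secretory tissue (points), with the mean as a bar. YABBY 5-like LOC107933134 is lowest in the bracteal nectary (11.1 to 75.1 normalized) and NAC 45-like in the adjacent leaf (0.93 to 5.73), while the WAT1-related gene is at 0 outside the bracteal nectary.

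The same nectary types were also measured before secretion in other samples, 2 bracteal and 2 foliar. There 639 genes (1.41%) passed, 220 higher (0.485%) and 419 lower (0.924%) in bracteal nectaries. Of the 639, 354 also passed after secretion, 353 in the same direction (55.2% of the 639 and 9.06% of the post-secretory calls). Identity genes were among the genes that passed at both stages. CAULIFLOWER A-like XP_016674382.1 had 2470 and 3774 in pre-secretory bracteal and 138 and 44.1 in foliar nectaries, knotted-1-like 2 LOC107930537 had 469 and 463 and was listed at 0 in both foliar samples, and YABBY 5-like LOC107943058 was listed at 0 in both bracteal samples beside 11914 and 5061. Organ differences in these genes were therefore measured at both stages. Asparagine synthetase LOC107937167 also passed, with 6012 and 4743 against 126 and 88.2. STH-2-like LOC107915337 passed with the opposite sign, at 823 and 2882 against 19850 and 9326.

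Several genes with large post-secretory differences had close values before secretion. ECERIFERUM 1-like LOC107962106 had 3138 and 2337 against 2522 and 1770, aquaporin TIP1-1 XP_016680708.1 had 10097 and 7169 against 11709 and 6876, and NAC transcription factor 29-like LOC107946409 had 15.8 and 36.8 against 21.5 and 26.4. The bracteal and foliar samples overlapped in all 3 genes. Cytosolic glutamine synthetase LOC107954816 had 1111 and 1143 against 394 and 294, with no call. The change of these differences between the stages was not tested, and the count before secretion rests on 2 samples a group: it was 0 when those 2 groups were fitted alone (4474 genes at an unadjusted p under 0.05), and 229 to 389 without any 1 sample, from fits that assume the lone sample to vary like the other groups.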

How the data were processed

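RNA of 3 post-secretory bracteal and 3 post-secretory foliar nectary pools of G. hirsutum TM-1 was compared, taken by label from a table of 51 RNA samples in 20 conditions with 2 sequencing runs each. The authors deposited a signal for 49663 NCBI protein entries, each described and paired with its closest Arabidopsis gene. How reads were aligned, filtered and scaled for it is not given in the sources used here, since the study's methods describe BLASTN mapping to another annotation. Among 37348 entries searched up to a value of 50, low values of 5657 entries fell on multiples of a step above 1, rounded (98.77% of 201543 held-out values lay on it, 56.9% by chance). The values were therefore treated as a length-scaled signal, with no count model.

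Runs were summed, entries of the same gene were summed (45810 genes), and each sample was divided by its upper-quartile factor (percentile 75). Genes that reached 10 in 2 or more samples were tested (45337). In limma 3.58.1 (R 4.3.3), log2(normalized value + 1) was fitted with 1 coefficient per condition over all 51 samples and eBayes with a trend. A gene was called at a Benjamini-Hochberg adjusted p under 0.05 and 1.5-fold (0.585 on the log2 scale). The contrasts were bracteal minus foliar nectary, adjacent bract minus adjacent leaf, the difference of those, and bracteal minus foliar nectary before secretion. Python 3.11.15, numpy 2.4.6, pandas 2.3.3 and matplotlib 3.10.9 handled tables and figures, and the procedure was tested on simulated data.

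The comparison, its 52 gene lists, matched by description or Arabidopsis match, and its rules were chosen with earlier results of these data known. Genes to name were the 12 largest changes in each direction among non-overlapping calls whose higher group averaged 100 or more, up to 4 called members per list and direction whose higher group averaged 50 or more, the 6 largest departures from adjacent tissue in each direction, and the markers. The departures were also limited to genes whose bracteal and foliar nectary samples did not overlap. By these rules 387 genes qualified, and 88 are printed, picked with their values known. Lists were counted and not tested. Alternatives were a pseudocount of 10, no filter, quantile scaling, single runs, entries not summed, a replicate block, the compared conditions alone and each replicate left out. A further 3 were added after the data had been seen. Same-numbered nectary and adjacent samples of an organ deviated together (correlations of 0.18 to 0.34), so that these numbers were taken as pairs, on the evidence of the values.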

Additional observations from a re-analysis of the deposited data

Results flagged for a closer look

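The test of whether bracteal and foliar nectaries differed by another amount than the bract and leaf beside them passed for 302 genes, and the printed genes among them are collected here with the difference of differences on the log2(normalized value + 1) scale. The cause was not tested for any of them. More positive between the nectaries were WAT1-related LOC107921359 (6.89), ALD1-like LOC107899574 (6.27), HAT22-like LOC107935244 (5.66), STH-2-like LOC107915337 (4.53), momilactone A synthase-like LOC107928231 (4.51), ACC oxidase 3-like LOC107950208 (4.33), peroxidase 4-like LOC107927161 (4.28), SHI RELATED SEQUENCE 6-like LOC107896388 (2.97) and glutamate dehydrogenase LOC107933490 (2.25).

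More negative were SHI RELATED SEQUENCE 1-like LOC107909432 (-3.25), 3-ketoacyl-CoA synthase 10-like XP_016673850.1 (-3.48), SHI RELATED SEQUENCE 5-like LOC107887298 (-4.00) and LOC107910209 (-4.81), 3-ketoacyl-CoA synthase 6-like XP_016711621.1 (-5.00), SWEET16-like LOC107887323 (-5.55), ATHB-52-like LOC107939183 (-6.10), RHA1B-like LOC107892475 (-6.30), ESR2-like LOC107928676 (-6.32), NAC 45-like LOC107923746 (-6.36) and LOC107914615 of a meristem size family (-6.42). The YABBY 5-like genes among them had -5.38 (LOC107943058), -5.96 (LOC107897255), -6.43 (LOC107953694) and -8.48 (LOC107933134).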

How the results depend on the processing

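No direction of a printed call between the nectaries turned in 13 alternative fits: of 1079 values over 83 genes, 1016 kept the call and 63 lost it, and 67 genes kept it in every fit. Of the 24 printed genes whose difference departed from the adjacent tissue, 8 kept the call in all 21 fits, with 104 of 504 values lost and none reversed. The nectary count of 3898 was 2029 to 3526 with 1 replicate left out and 5575 under quantile scaling (3045 higher). The count between bract and leaf (6732) was 3816 to 6935 with 1 replicate left out. The count of departures (302) was 185 to 312 with 1 replicate left out, 117 without bracteal nectary and bract replicate 1 together, 452 under quantile scaling, and 635 with a pseudocount of 10, of which 431 were more positive. The prevailing sign also turned without foliar nectary replicate 2 (157 of 294) and with run 1 alone (159 of 314). The pre-secretory count (639) was 229 to 389 with 1 replicate left out, 1212 with a pseudocount of 10, 1070 under quantile scaling and 0 with the compared conditions alone (4474 genes at an unadjusted p under 0.05). The causes were not tested.

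Replicate numbers did not pair bracteal with foliar nectaries (correlations of deviations of 0.193, 0.058 and 0.100, and bracteal replicate 2 was closer to foliar replicate 3, 0.107). With the replicate number as a block, the counts were 3778, 6673, 330 and 638, and within each organ, where nectary and adjacent samples paired, 332 departures passed and the ATHB-52-like call was lost (adjusted p = 0.0653 in limma with Benjamini-Hochberg adjustment), with no other printed call changed there. Before secretion, samples with the same number in their titles deviated in opposite directions (-0.257), and crossed numbers gave 666 calls. The numbers in the table's column names differ from those of the titles for the pre-secretory bracteal samples. With 3 samples a group and values that near 10 rest on few reads, small differences of low genes could not be resolved.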
